A study of Mus musculus with 8 samples.

Results

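The receptors for the colony-stimulating factors are encoded in the mouse by Csf1r, Csf2ra, Csf2rb, Csf2rb2 and Csf3r. The 5 genes were taken by name, and their regions were those that the deposited table assigns to one of these symbols by nearest start site. This gave 54 of the 129304 regions of the table and 5 of its 18707 gene symbols. Csf1r had 21 regions, Csf2ra 16, Csf3r 11, and Csf2rb and Csf2rb2 had 3 each.

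Csf1r is a receptor tyrosine kinase on the surface of microglia and other macrophages. It binds CSF1 and IL-34, and microglia depend on its signalling for survival. GM-CSF binds a receptor made of an alpha chain, from Csf2ra, and a common beta chain, from Csf2rb, that signals through JAK2 and STAT5. Csf2rb2 is a mouse copy of the beta chain that serves the IL-3 receptor. Csf3r encodes the G-CSF receptor, which is best known for its role in neutrophil production. Acetylation of histone H3 at lysine 27 (H3K27ac) marks active promoters and enhancers, so a profile of the mark shows which regulatory regions of a gene are in use.

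H3K27ac was measured by chromatin immunoprecipitation and sequencing in nuclei sorted from frozen mouse brain as PU.1+, OLIG2- and NEUN-. The WT group held wild-type mice and the GrnKO group mice that lack Grn, the gene for the lysosomal protein progranulin. Both groups were labelled C57BL/6 and 2 years old, and the sex of the mice was not used here. Each of the 2 replicates per genotype was a pool of nuclei from 2 mice, with an H3K27ac library and an input library of sonicated chromatin.

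The H3K27ac libraries held 15491642.5 to 20030832 tags and the inputs 4078179 to 14415969 tags. Values below are scaled tags, that is, tags per 10000000 in an 800 bp region, after scaling by the trimmed mean of M-values (TMM). WT replicate 1 stood apart with a TMM factor of 0.825, against 1.04 to 1.08 in the other libraries. At the Grn promoter region nearest the start (13 bp upstream) the WT libraries had 357 and 300 scaled tags and both GrnKO libraries had 0, where 3 tags would be at most 1.83 scaled tags before TMM. A second promoter region, 631 bp upstream, had 708 and 553 in WT and 6.79 and 6.00 in GrnKO, and a Grn region in intron 7 was higher in GrnKO, at 33.4 and 46.1 against 0.782 and 6.02. The 10 microglial marker genes had a mean of 205 scaled tags per region in WT. Their summed level was 50472 and 54702 in WT and 44075 and 44478 in GrnKO, and 4 of the 10 (Tmem119, Sall1, Cx3cr1 and Siglech) were lower in GrnKO, beside 4.87% of all genes called lower and 9.53% called higher. Fcrls and Trem2 had positive log2 changes of 0.25 and 0.29 that did not pass. Border macrophage markers summed to 1232 and 1211 in WT and 1720 and 1558 in GrnKO, and 2 of 7 (F13a1 and Ms4a7) were higher, while Lyve1, Cbr2, Cd163 and Pf4 had log2 changes of -0.76, -0.20, -0.05 and -0.01 that did not pass. Markers of T and B cells summed to 390 and 355 in WT and 923 and 767 in GrnKO, with Cd4 and Ms4a1 higher and Cd3e at 0 in 2 of the 4 libraries. Monocyte markers summed to 602 and 592 in WT and 467 and 374 in GrnKO, and none of the 2 tested passed the threshold. Endothelial markers summed to 504 and 446 in WT and 913 and 931 in GrnKO, with Flt1 higher. In the oligodendrocyte list (1939 and 1991 in WT, 2538 and 2674 in GrnKO) Mbp was higher and Mog lower, and in the neuronal list (214 and 271 in WT, 181 and 151 in GrnKO) Syt1 was lower. The part that these shifts have in the receptor results was not tested.

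Summed over its regions, H3K27ac at Csf1r was lower in GrnKO, and the sums of the other receptor genes did not pass the test. Csf1r had 3608 (replicate 1) and 4074 (replicate 2) scaled tags in WT, against 2983 (replicate 1) and 3154 (replicate 2) in GrnKO; values below keep this order. Both GrnKO libraries lay below both WT libraries. WT averaged 3841 ± 329 and GrnKO 3068 ± 121 (SD, 2 libraries each, n = 2). The level fell by 20.1%, a log2 change of -0.32 with a standard error of 0.09 (limma, adjusted p = 0.0258 over 15396 genes). That made 1 of the 5 receptor genes past the threshold, beside 14.4% of all genes tested in either direction and 4.87% in the direction of lower signal. In bulk nuclei of this kind, fewer nuclei of a type and less acetylation per nucleus cannot be told apart.

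Csf2ra had 726 and 768 scaled tags in WT and 788 and 730 in GrnKO, a log2 change of 0.02 (standard error 0.12). Csf2rb had 414 and 364 in WT and 349 and 376 in GrnKO, a log2 change of -0.10 (standard error 0.15). Csf2rb2 had 496 and 372 in WT and 413 and 390 in GrnKO, a log2 change of -0.10 (standard error 0.16). In all 3 genes of the GM-CSF and IL-3 receptors the genotypes overlapped, with adjusted p from 0.748 to 0.936 in limma. Csf3r summed to 1714 and 2285 in WT, against 1917 and 1903 in GrnKO. The GrnKO values lay between the WT values, and the log2 change was -0.05 (standard error 0.12; limma, adjusted p = 0.843). The direction depended on the WT library kept: without WT replicate 1 the change was -0.26 (limma, adjusted p = 0.0307) and without WT replicate 2 it was 0.16 (limma, adjusted p = 0.248). With the authors' scaling the sums of Csf2rb, Csf2rb2 and Csf3r turned to 0.09, 0.09 and 0.14.

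The scaling mattered for Csf1r. With the authors' scaling alone, the median log2 change of all genes was 0.18 instead of -0.01, and that of all regions 0.22 instead of -0.00. Csf1r then had 3047 and 4229 scaled tags in WT and 3179 and 3375 in GrnKO, so that the groups overlapped, and its log2 change was -0.13 (limma, adjusted p = 0.845). Relative to the median of all genes the change was -0.31 under either scaling. A change of scaling shifts all log2 changes by nearly the same amount. Here and below, values relative to a median therefore agree by construction. The call was also lost when either GrnKO library was left out: the change was -0.28 without GrnKO replicate 1 (limma, adjusted p = 0.364) and -0.36 without GrnKO replicate 2 (limma, adjusted p = 0.153).

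**Figure D1:**
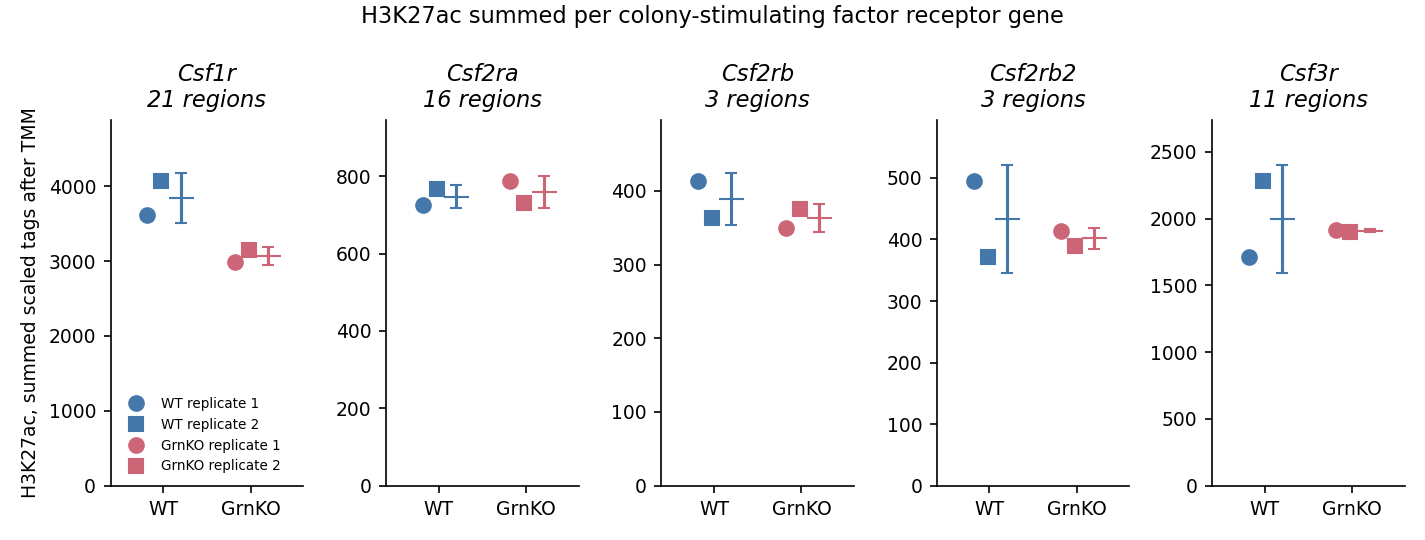
H3K27ac summed per receptor gene, in scaled tags after TMM, for 2 WT and 2 GrnKO libraries. Points are libraries, and the bars beside them are the mean ± SD (n = 2). Csf1r sits lower in both GrnKO libraries, at 2983 and 3154 against 3608 and 4074 in WT, while the other 4 genes overlap between genotypes.

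Divided by the number of assigned regions, Csf1r and Csf3r had the highest levels in WT and Csf2ra the lowest. This mean depends on how many weak regions the table assigns to a gene. For Csf1r it leaves out 20 regions inside the gene that are assigned to Mir6983, with a mean of 60.2 in WT. For Csf2ra it includes 7 regions, of 16, that had too few tags to be tested. Csf1r had 183 ± 15.7 scaled tags per region and Csf3r 182 ± 36.7, a difference far inside the spread of the replicates. Csf2rb2 followed with 145 ± 29.2 and Csf2rb with 130 ± 11.8, and these overlapped (165 and 124 against 138 and 121 in the WT libraries). Csf2rb2 also overlapped Csf3r, which had 156 and 208 per region, but not Csf1r, which had 172 and 194. Csf2ra was lowest at 46.7 ± 1.86. In GrnKO, Csf3r was at 174 ± 0.917 and Csf1r at 146 ± 5.75 scaled tags per region, so Csf3r lay above Csf1r in both libraries there. All of these means have n = 2 libraries. By the WT level per region, Csf1r lay above 97.9% of the tested genes, Csf3r above 97.8%, Csf2rb2 above 96.0%, Csf2rb above 95.1% and Csf2ra above 74.0%.

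Of the 54 regions, 45 had enough tags to be tested (the filter asks for 10 tags): 20 of Csf1r, 9 of Csf2ra, 3 each of Csf2rb and Csf2rb2, and 10 of Csf3r. The other 9 had at most 22.3 scaled tags in any H3K27ac library. Of the 45, 2 passed the threshold, both lower in GrnKO, and none was higher. Over all 80914 tested regions, 9.70% were called in either direction and 2.92% were called lower. One was upstream of Csf1r and the other upstream of Csf2ra. In 18 of the 45 both GrnKO libraries lay below both WT libraries, against 25.6% of all tested regions, and in 7 both lay above, against 21852 of the 80914 tested regions. Together the groups did not overlap in 25 of the 45, beside 52.6% of all tested regions. Under the authors' scaling alone this balance was different, as 6 of the 45 lay below and 10 above, beside 13.3% and 35.8% of all tested regions.

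The log2 change was negative in 28 of the 45 regions, with a median of -0.21 beside -0.00 over all tested regions. The genes differed among themselves in these counts. Csf1r had a negative change in 16 of 20 regions, with a median of -0.40, and the GrnKO libraries lay below in 11 and above in 0 after TMM, or below in 4 and above in 1 with the authors' scaling. Csf2ra had a negative change in 3 of 9 and Csf3r in 5 of 10, with medians of 0.11 and -0.01. Neighbouring regions share tags and nucleosomes, so these counts are no replicates of each other.

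**Figure D2:**
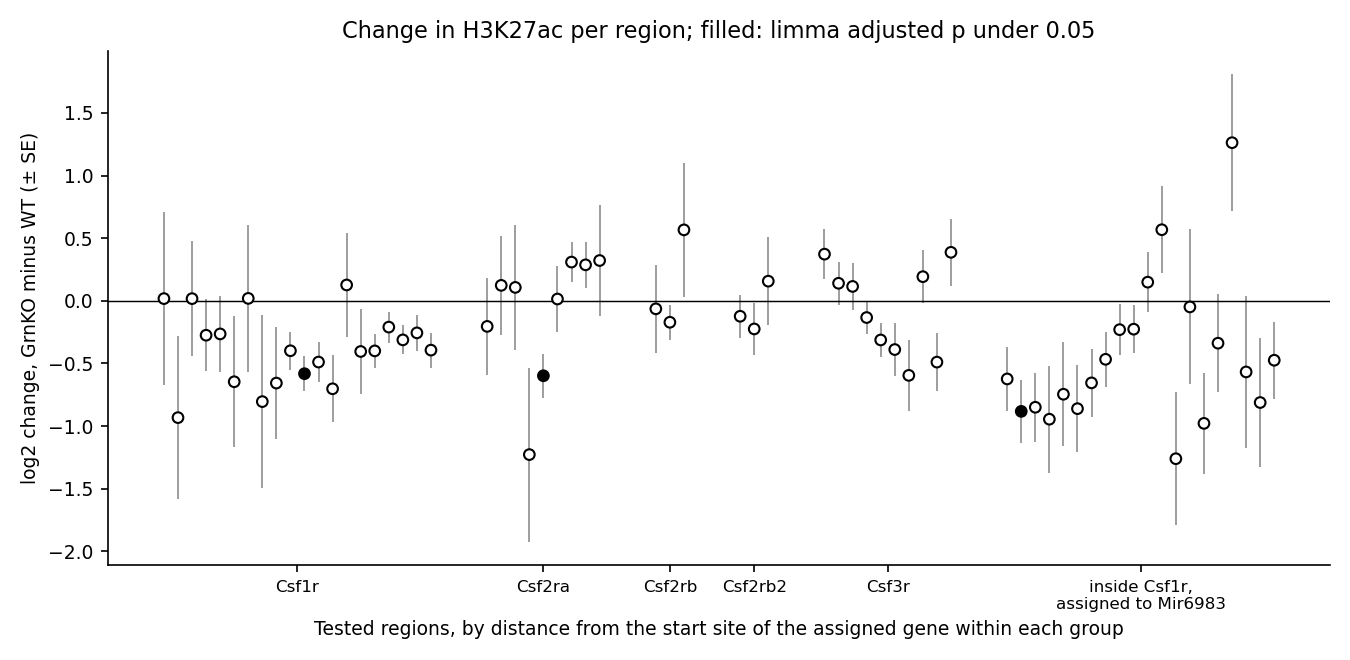
Log2 change of H3K27ac, GrnKO minus WT, for each tested region, with its standard error from limma. Groups of points are the assigned genes, with the regions inside Csf1r that the table assigns to Mir6983 at the right, and filled points have an adjusted p under 0.05. Points of Csf1r and of its gene body beyond intron 2 lie mostly below 0 (16 of 20 and 17 of 20), while those of Csf3r split 5 to 5.

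The Csf1r regions formed a peak over the start site and intron 2 and a second one upstream. The region at the start site (chr18:61105145-61105945, centre 27 bp upstream of the start) had 428 and 507 scaled tags in WT, against 339 and 367 in GrnKO. The strongest region (chr18:61105461-61106261, centre 289 bp downstream of the start, annotated as 5' UTR in exon 2 of 22) had 648 and 836 in WT and 605 and 670 in GrnKO. At the start site both GrnKO libraries lay below both WT libraries after TMM but overlapped them with the authors' scaling, and at the strongest region GrnKO replicate 2 lay above WT replicate 1. Neither region passed the test: the log2 change was -0.40 (limma, adjusted p = 0.0685) at the start site and -0.21 (limma, adjusted p = 0.323) at the strongest region. The start-site region was called by DESeq2 (adjusted p = 0.0461), with the replicate block (limma, adjusted p = 0.0181) and without WT replicate 1 (-0.52; limma, adjusted p = 0.00295). The strongest region was called without WT replicate 1 (-0.39; limma, adjusted p = 0.00531) and was at -0.03 without WT replicate 2 and at 0.02 with the authors' scaling. The 2 regions overlap, so part of their tags is shared.

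Intron 2 of Csf1r holds the element known as FIRE, an enhancer that microglia need for normal Csf1r expression. Its position within the intron was not looked up here. Of the 3 regions in this intron, the one 2163 bp from the start had 610 and 713 scaled tags in WT, against 534 and 529 in GrnKO. The one at 3048 bp had 312 and 309 in WT and 260 and 260 in GrnKO, and the one at 4043 bp had 373 and 371 in WT and 269 and 297 in GrnKO. In each of the 3 both GrnKO libraries were lower than both WT libraries after TMM, and the genotypes overlapped in all 3 with the authors' scaling. Their log2 changes were -0.31, -0.26 and -0.39, and limma's adjusted p was 0.103, 0.296 and 0.0839, so that none passed the threshold.

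The Csf1r region that passed the test lies in the upstream peak. This intergenic region 6400 bp upstream of the start (chr18:61098772-61099572) had 360 and 386 scaled tags in WT, against 245 and 253 in GrnKO. After TMM the replicates of each genotype lay close together and the groups were well apart, with means of 373 ± 18.7 and 249 ± 5.89 (SD, n = 2 each). The level fell by 33.3%, a log2 change of -0.58 with a standard error of 0.14 (limma, adjusted p = 0.0131). The 2 flanking regions also read lower in both GrnKO libraries after TMM, without passing the test, and overlapped with the authors' scaling. At 7222 bp upstream WT had 286 and 322 and GrnKO 220 and 241, and at 5604 bp upstream WT had 243 and 278 and GrnKO 181 and 189, with log2 changes of -0.40 and -0.49 (limma, adjusted p = 0.110 and 0.0645). Inputs at the region 6400 bp upstream held 0 and 20.9 scaled tags in WT and 7.63 and 0 in GrnKO.

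This call depended on the scaling and on both GrnKO libraries. Under the authors' scaling alone, the WT libraries held 297 and 400 scaled tags at this region, against 265 and 274 for GrnKO. The genotypes did not overlap, but the WT libraries lay further from each other than WT replicate 1 lay from either GrnKO library. The change was then -0.36 (limma, adjusted p = 0.497). Relative to the median of all regions it was -0.57, against -0.58 after TMM, which agree by construction. Without GrnKO replicate 1 it was -0.56 and without GrnKO replicate 2 it was -0.61 (limma, adjusted p = 0.236 and 0.150). Within each library, the ratio of this region to the start-site region was 0.842 and 0.761 in WT, against 0.721 and 0.690 in GrnKO. The ratio was lower in both GrnKO libraries. The two-sided p of an exact permutation test was 0.333, which is as low as 2 against 2 libraries can go, and the pair of regions was chosen after its values were seen. The ratio of the intron 2 region at 2163 bp to the same start-site region was instead higher in GrnKO, at 1.57 and 1.44 against 1.43 and 1.41 in WT, with the same p from that test.

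Beyond intron 2, the gene body of Csf1r was listed under another name. The table assigns 20 regions inside the Csf1r transcript NM_001037859 to Mir6983, a microRNA gene in that interval, because its start is nearer. All 20 were tested, 17 had a negative log2 change, and the median was -0.60. In 13 both GrnKO libraries lay below both WT libraries, against 25.6% of all tested regions, and in 1 both lay above, against 21852 of 80914. With the authors' scaling these counts were 10 and 1, beside 13.3% and 35.8% of all tested regions. The signal there was weaker, at a mean of 60.2 scaled tags per region in WT and 45.3 in GrnKO.

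Of these gene-body regions 1 passed the test, lower in GrnKO, beside 9.70% of all tested regions called in either direction and 2.92% called lower. It lies in intron 6 of 21 of Csf1r, 7467 bp from the start (chr18:61112639-61113439), and had 86.4 and 104 scaled tags in WT and 52.0 and 50.0 in GrnKO. Both GrnKO libraries were well below both WT libraries after TMM. The level fell by 46.5%, a log2 change of -0.88 with a standard error of 0.25 (limma, adjusted p = 0.0339). The call was lost with the authors' scaling (-0.66), without WT replicate 2 (-0.75) and without either GrnKO replicate (-0.91 and -0.85), with limma's adjusted p from 0.0612 to 0.253, and with no filter (limma, adjusted p = 0.0502). With these 20 regions counted to Csf1r, an alternative chosen after seeing the data, the gene summed to 4787 and 5273 in WT and 3878 and 4093 in GrnKO over 41 regions. The log2 change was then -0.33 with a standard error of 0.08 (limma, adjusted p = 0.0139).

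Split by distance, the Csf1r regions more than 1000 bp from the start gave a log2 change of -0.36 (limma, adjusted p = 0.0185), and those within 1000 bp gave -0.24 (limma, adjusted p = 0.295). The difference between these values was not tested. One region named for Csf1r, 28290 bp upstream, lies in intron 15 of 22 of the neighbouring receptor kinase gene Pdgfrb. Its signal was weak, at 14.9 ± 14.4 scaled tags for WT and 11.8 ± 4.57 for GrnKO (SD, n = 2 each), and the genotypes overlapped.

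**Figure D3:**
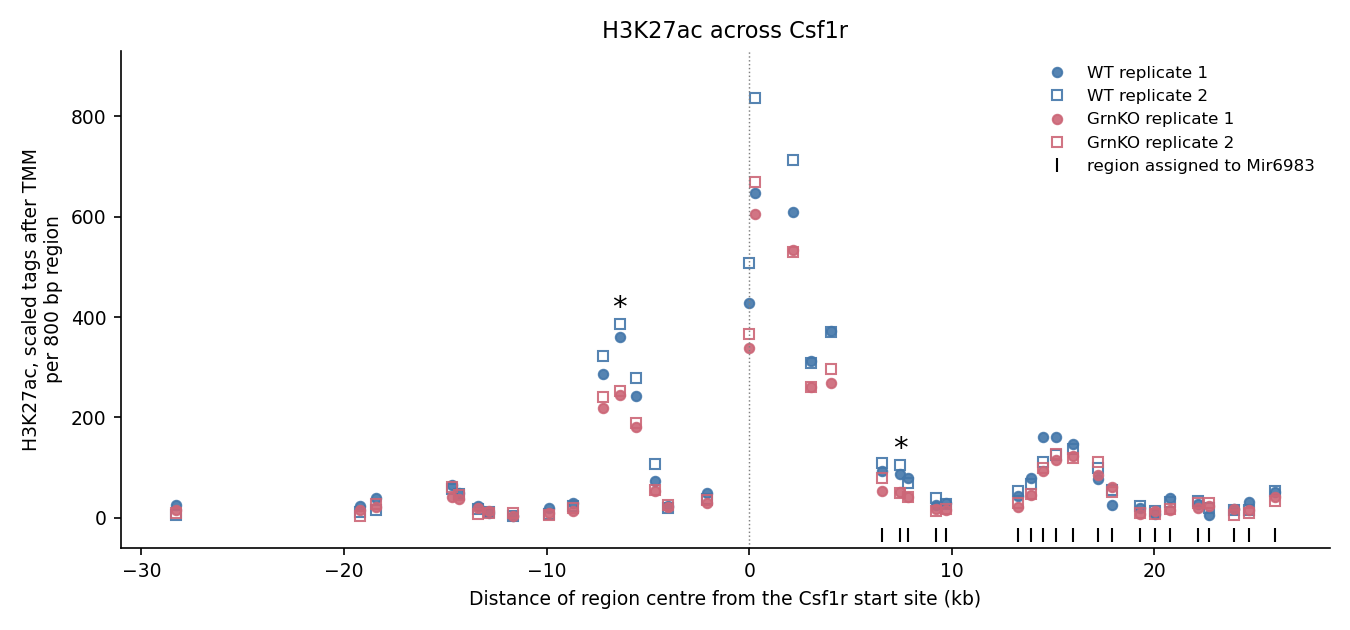
H3K27ac per 800 bp region, in scaled tags after TMM, against the distance of the region's centre from the Csf1r start site in kb, for the 21 regions assigned to Csf1r and the 20 inside the gene that are assigned to Mir6983 (ticks below 0). Stars mark the 2 regions with a limma adjusted p under 0.05. GrnKO points lie below WT points in the upstream peak (245 and 253 against 360 and 386) and in intron 6 (52.0 and 50.0 against 86.4 and 104).

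The GM-CSF receptor alpha chain gene, Csf2ra, had a summed signal that did not pass the test, while 1 of its regions did. The intergenic region 16510 bp upstream (chr19:61244528-61245328) had 225 and 203 scaled tags in WT and 135 and 147 in GrnKO. Both GrnKO libraries lay below both WT libraries, and the level fell by 34.1%, a log2 change of -0.60 with a standard error of 0.18 (limma, adjusted p = 0.0378). The region with the highest mean, in intron 1 of 11 and 671 bp from the start (chr19:61227347-61228147), had 196 and 217 in WT and 274 and 239 in GrnKO. Both GrnKO libraries lay above both WT libraries there, but the log2 change of 0.31 (standard error 0.16) did not pass the test (limma, adjusted p = 0.253). The region over the start site had 65.3 and 80.4 in WT and 85.4 and 62.7 in GrnKO, and the genotypes overlapped.

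The call upstream of Csf2ra was lost with the authors' scaling (-0.37; -0.59 relative to the median of all regions), without WT replicate 1 (-0.52), without GrnKO replicate 1 (-0.54) and without GrnKO replicate 2 (-0.66), with limma's adjusted p from 0.0537 to 0.473, and with no filter on low tags (limma, adjusted p = 0.0666). The ratio of the intron 1 region to the upstream region within each library does not depend on scaling. It was 0.872 and 1.07 in WT and 2.03 and 1.63 in GrnKO, so both GrnKO libraries were above both WT libraries. For this pair, chosen after its values were seen, the exact permutation test had a two-sided p of 0.333, its lower limit. The upstream region carried 28.3% of the Csf2ra signal in WT and 18.8% in GrnKO. Inputs at the upstream region held 0 in both WT libraries and 19.4 and 20.4 scaled tags in GrnKO.

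The beta chain genes Csf2rb and Csf2rb2 lie next to each other on chromosome 15 and are near-identical copies, and whether the authors' counting could split or share reads between them was not tested. At the Csf2rb start site (chr15:78325549-78326349) there were 365 and 326 scaled tags in WT and 292 and 321 in GrnKO. Both GrnKO libraries were lower after TMM, with a log2 change of -0.17 (limma, adjusted p = 0.508), and with the authors' scaling the genotypes overlapped and the change was 0.05. At the Csf2rb2 start site (chr15:78305282-78306082) WT had 287 and 213 and GrnKO 231 and 223, so the GrnKO values lay between the WT values (log2 change -0.12, or 0.10 with the authors' scaling; limma, adjusted p = 0.722 and 0.885). Of the other 4 regions of these genes none passed the test.

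The Csf3r start site (chr4:126024306-126025106) had 448 and 566 scaled tags in WT, against 469 and 450 in GrnKO, the strongest signal of this gene. The genotypes overlapped, with a log2 change of -0.13 (standard error 0.13; limma, adjusted p = 0.595), or 0.09 with the authors' scaling. Of the 10 tested regions none passed the adjusted threshold in limma. An unadjusted p under 0.05 was found for 3 of the 10, all lower in GrnKO, and for 19310 of all 80914 tested regions. The 3 lie in introns 1, 3 and 6 of Csf3r. Both GrnKO libraries were below both WT libraries in each after TMM, and the genotypes overlapped in all 3 with the authors' scaling. The one in intron 1, centred 413 bp from the start, had 426 and 555 in WT and 394 and 388 in GrnKO, a log2 change of -0.31. The one 3529 bp from the start had 61.4 and 79.6 in WT and 43.0 and 49.1 in GrnKO, a log2 change of -0.60. The one at 7702 bp had 97.4 and 123 in WT and 73.8 and 81.6 in GrnKO, a log2 change of -0.49. The region 6781 bp upstream of the start, with an unadjusted p of 0.0786 in limma, read higher in both GrnKO libraries than in both WT libraries, at 175 and 172 against 112 and 160. The ratio of the upstream to the intron 1 region within a library was 0.264 and 0.287 in WT and 0.443 and 0.444 in GrnKO (exact permutation test, two-sided, p = 0.333, the smallest possible; pair chosen after its values were seen).

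Neutrophils are known for high Csf3r expression, so neutrophil markers were read beside it. The 9 neutrophil genes that could be read had a mean of 4.53 scaled tags per region in WT and 4.59 in GrnKO, against 182 and 174 at Csf3r. They summed to 133 and 83.9 in WT, against 121 and 99.6 in GrnKO. S100a9 was at 0 in both WT libraries and in GrnKO replicate 2. S100a8 was the 1 gene of the 7 tested to pass the threshold, rising from 0 and 5.23 in WT to 20.7 and 18.9 in GrnKO.

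**Figure D4:**
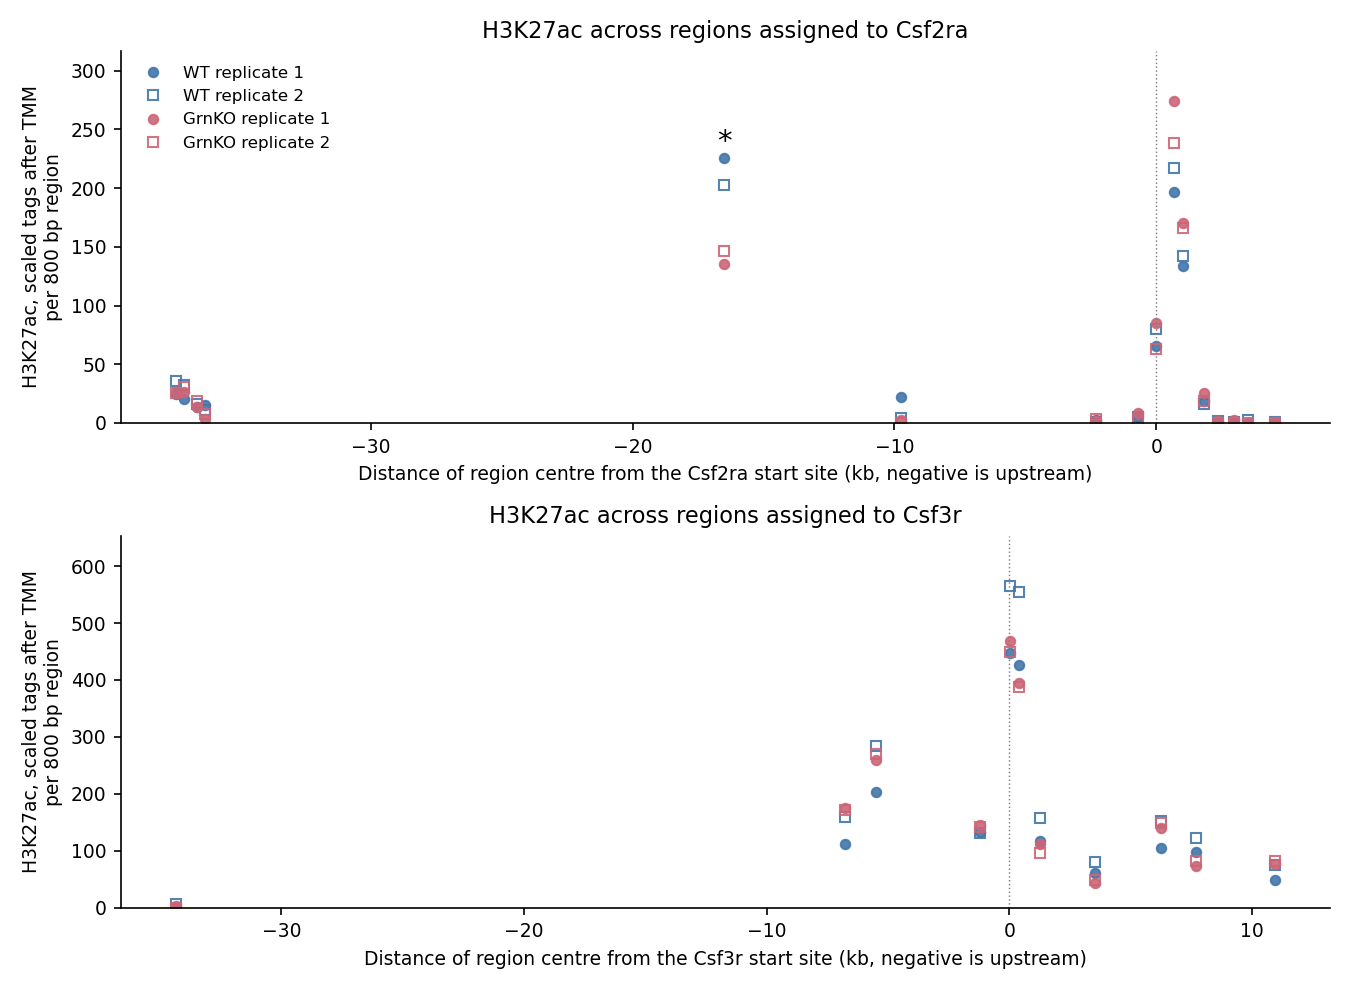
H3K27ac per 800 bp region, in scaled tags after TMM, against distance from the start site in kb, for Csf2ra (top, 16 regions) and Csf3r (bottom, 11 regions). The star marks the Csf2ra region 16510 bp upstream, at 135 and 147 in GrnKO against 225 and 203 in WT, while the intron 1 region near its start reads higher in GrnKO. At Csf3r both GrnKO points lie below both WT points in 4 of the 10 tested regions and above them in 3. With the authors' scaling these counts are 0 and 3. Of all 80914 tested regions, 25.6% lie below and 21852 regions above after TMM, and 13.3% and 35.8% with the authors' scaling.

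The promoter sequences of Csf2ra, Csf2rb2 and Csf3r are shown because each start-site region carried H3K27ac and none passed the test of a difference. They are the 250 bases before the start site, 5′ to 3′ on the gene's strand, from RefSeq on GRCm38.p6. The set of promoter sequences used here held 3 of the 5 genes. Capitals mark the core letters bound by PU.1 (GAGGAA, or TTCCTC on the other strand), the factor used for the sort, and the cyclic AMP response element (TGACGTCA). The windows are chr19:61228419-61228668 on the minus strand for Csf2ra, chr15:78305722-78305971 on the minus strand for Csf2rb2 and chr4:126024409-126024658 on the plus strand for Csf3r.
Csf2ra: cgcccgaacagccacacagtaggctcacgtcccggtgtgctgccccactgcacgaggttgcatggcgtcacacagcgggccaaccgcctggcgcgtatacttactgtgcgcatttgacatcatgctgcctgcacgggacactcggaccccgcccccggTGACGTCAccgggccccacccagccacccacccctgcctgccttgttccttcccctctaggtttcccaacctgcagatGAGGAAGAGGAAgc
Csf2rb2: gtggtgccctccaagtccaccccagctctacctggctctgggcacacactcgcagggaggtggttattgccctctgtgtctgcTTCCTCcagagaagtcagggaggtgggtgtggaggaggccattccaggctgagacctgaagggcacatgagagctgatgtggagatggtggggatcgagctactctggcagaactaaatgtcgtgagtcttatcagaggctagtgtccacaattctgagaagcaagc
Csf3r: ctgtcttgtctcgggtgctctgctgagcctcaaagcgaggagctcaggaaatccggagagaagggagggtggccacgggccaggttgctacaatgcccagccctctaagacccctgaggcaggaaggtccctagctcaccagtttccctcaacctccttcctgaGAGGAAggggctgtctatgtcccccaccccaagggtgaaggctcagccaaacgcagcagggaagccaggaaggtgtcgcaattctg
The PU.1 core occurred 2 times in the Csf2ra window, directly next to each other at 14 and 8 bases before the start. It occurred once in the Csf2rb2 window, 167 bases before the start on the other strand, and once in the Csf3r window, 86 bases before it. On either strand it occurs in 23.25% of all 32851 RefSeq windows of this length. The response element occurred in the Csf2ra window alone of the 3, at 92 bases before the start, and in 1.546% of all windows. Searches on both strands for TGANTCA (AP-1), TTGCNNAA (C/EBP), TGTGGT (RUNX) and CACGTG (an E-box) found no match in the 3 windows. These letters occur in 6.749%, 9.564%, 14.05% and 6.021% of all windows. GC content was 64.8% in the Csf2ra window, 56.4% in that of Csf2rb2 and 60.0% in that of Csf3r, beside a median of 52.4%.

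Among the ligands, H3K27ac at Csf1, which encodes the CSF1 ligand of Csf1r, was higher in GrnKO. Its regions summed to 569 and 477 scaled tags in WT and 802 and 747 in GrnKO. Both GrnKO libraries lay above both WT libraries, and the log2 change was 0.57 with a standard error of 0.13 (limma, adjusted p = 0.00922). The call was lost without GrnKO replicate 1 (0.52; limma, adjusted p = 0.159) and without GrnKO replicate 2 (0.62; limma, adjusted p = 0.0561). With regions within 1000 bp of the start alone the change was 0.04 (limma, adjusted p = 0.960). The inputs at Csf1 also read higher in GrnKO, at 128 and 109 scaled tags against 17.2 and 43.8 in WT. With the input effect subtracted the change was -1.49 (standard error 0.96; limma, adjusted p = 0.917). That setting takes the log2 change of the inputs, which are shallow, from that of H3K27ac, and does not subtract tags. Over all genes its median was -0.48, and that of the inputs alone was 0.47. Csf2, the GM-CSF gene, had 9.55 and 9.41 in WT and 12.1 and 4.43 in GrnKO, which is low and overlapping. Csf3, the G-CSF gene, had 89.0 and 89.4 in WT and 81.8 and 86.3 in GrnKO, with a log2 change of -0.09 (limma, adjusted p = 0.877), or 0.10 with the authors' scaling. Its inputs held 0 and 1.07 scaled tags in WT and 42.3 and 71.4 in GrnKO. With the input effect subtracted the Csf3 change was -5.37 (limma, adjusted p = 0.671). Il34 was not analysed here.

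A list of 55 other genes of colony-stimulating factor signalling was read from the same test. It held ligands, related receptor chains, adaptors, kinases, signal transducers, negative regulators and myeloid transcription factors. Of the 52 that could be tested 7 passed, 4 higher in GrnKO and 3 lower, which is 13.5% beside 14.4% of all genes. The share called higher among all genes was 9.53%. The median log2 change of the list was -0.07 and that of all genes -0.01. By role, 1 of 4 ligands, 1 of 5 related receptor chains, 4 of 21 adaptors and kinases, 0 of 3 signal transducers, 0 of 9 negative regulators and 1 of 10 transcription factors passed.

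Flt3, a receptor tyrosine kinase of the same family as Csf1r, was lower, with 1077 and 1122 scaled tags in WT and 689 and 872 in GrnKO. Its log2 change was -0.50 (limma, adjusted p = 0.0153). Among kinases Src had 627 and 632 in WT and 445 and 383 in GrnKO, a log2 change of -0.61 (limma, adjusted p = 0.00742). Tyk2, a Janus kinase, had 748 and 648 in WT and 533 and 450 in GrnKO, a log2 change of -0.51 (limma, adjusted p = 0.0239). In each of these 3 genes both GrnKO libraries were below both WT libraries, though Flt3 overlapped with the authors' scaling, and all 3 calls were lost with the authors' scaling (-0.31, -0.42 and -0.32; limma, adjusted p = 0.487, 0.296 and 0.480).

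The adaptor Grb2, which links receptor kinases to the Ras pathway, had 1224 and 1195 scaled tags in WT and 1648 and 1557 in GrnKO, a log2 change of 0.41 (limma, adjusted p = 0.0148). Gab3, an adaptor of CSF1 receptor signalling in macrophages, had 110 and 73.9 in WT and 176 and 151 in GrnKO, a log2 change of 0.85 (limma, adjusted p = 0.0279). Jun, a subunit of the AP-1 transcription factor, had 3901 and 4375 in WT and 5350 and 5475 in GrnKO, a log2 change of 0.39 (limma, adjusted p = 0.00513). Both GrnKO libraries were above both WT libraries in all 3. With the authors' scaling Grb2 and Jun had larger log2 changes, 0.59 and 0.58, but did not pass (limma, adjusted p = 0.0934 and 0.185).

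Of the 7 calls, Csf1, Grb2, Gab3, Jun and Tyk2 were lost when either GrnKO library was left out. Without GrnKO replicate 1 and without GrnKO replicate 2, the log2 change was 0.36 and 0.45 for Grb2, 0.74 and 0.96 for Gab3, 0.41 and 0.37 for Jun, and -0.63 and -0.38 for Tyk2. The call was lost for Src without GrnKO replicate 2 (-0.50) and for Flt3 without GrnKO replicate 1 (-0.33). Gab3 was also lost without WT replicate 2 (0.57; limma, adjusted p = 0.0606). Spi1, which encodes PU.1, had 5170 and 5841 scaled tags in WT and 5345 and 5389 in GrnKO, with a log2 change of -0.03 (limma, adjusted p = 0.849).

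**Figure D5:**
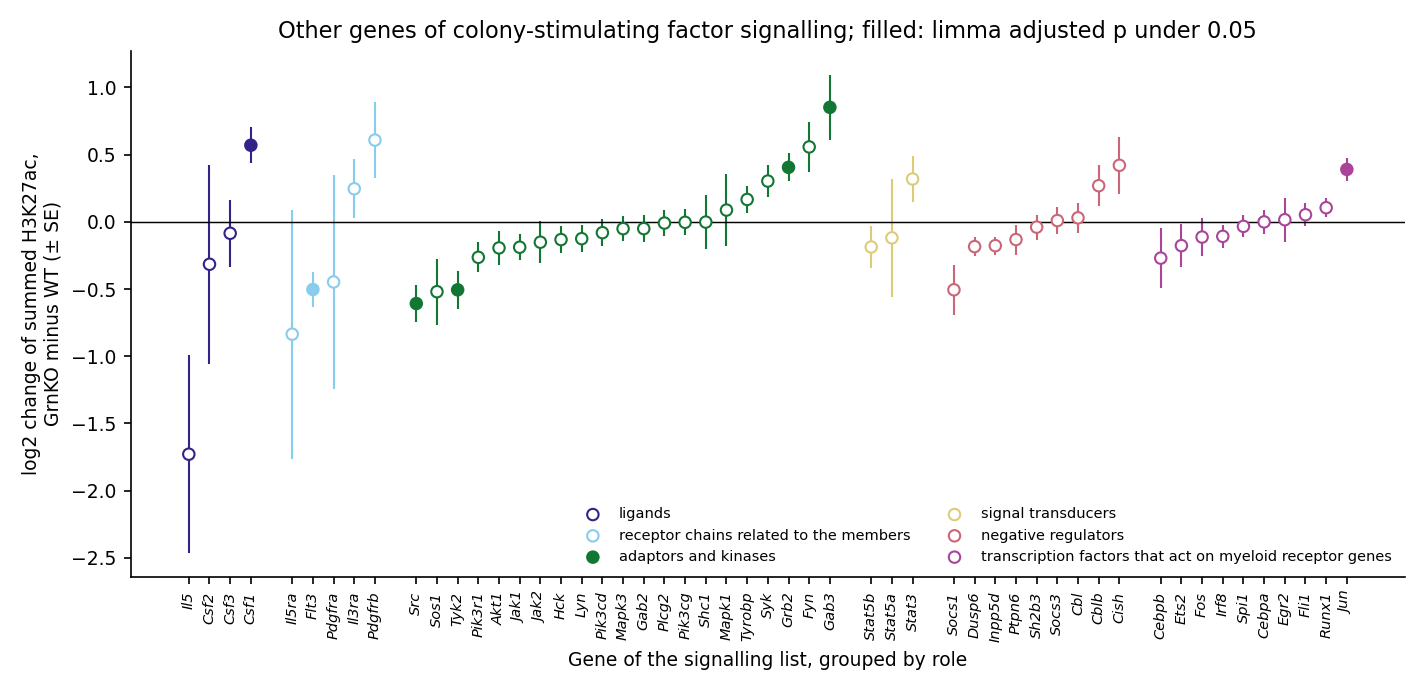
Log2 change of summed H3K27ac, GrnKO minus WT, with its standard error from limma, for the 52 tested genes of the signalling list, coloured by role. Filled points have an adjusted p under 0.05. Csf1, Grb2, Gab3 and Jun lie above 0 and Flt3, Src and Tyk2 below it, with the rest on both sides.

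The 3 genes whose summed signal was most like that of Csf1r over the 4 libraries were the ubiquitin ligase gene Marchf10, 1700027F09Rik and Sh3pxd2a. Likeness was the root mean square difference from Csf1r on the log2 scale, over 15395 other genes, and it was 0.05, 0.06 and 0.07. Marchf10, which the table spells as a calendar date and which was matched by its Entrez identifier, had 3701 and 4200 scaled tags in WT, against 3089 and 3038 in GrnKO. The measure includes the level and the difference between genotypes, so these genes are lower in GrnKO by construction.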

How the data were processed

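Per the file headers, the authors counted tags in 800 bp regions merged from ATAC-seq peaks that passed a reproducibility filter, and scaled each library to 10000000 tags with HOMER-style tag directories. The deposited unit is therefore a signal. The submitters' processing notes name Bowtie2, HOMER, DESeq2 and the build mm10, without roles. The handling of duplicate reads is not given in the sources used here. Multiplying by the library totals gave whole read ends, at 2 ends per tag, for 100% of values, within a tolerance of 0.0241 to 0.0400 read ends. All value columns were matched to samples by title.

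The members and lists were chosen with earlier results of these data known. Signal after TMM was log2-transformed with a pseudocount of 1, filtered with filterByExpr (minimum 10 tags) and fitted with genotype as the only term, over the 4 H3K27ac libraries (R 4.3.3, limma 3.58.1 with trend, edgeR 4.0.16), with Benjamini-Hochberg adjustment at 0.05 over 80914 regions or 15396 genes. Such log2 changes understate the change of low regions. For genes, signal was summed over assigned regions, overlapping ones included, with TMM factors of its own table. Scripts were tested on simulated data.

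Named were the 5 genes, their regions past the threshold, strongest and nearest the start, listed genes past the threshold, the ligands and the 3 genes most like Csf1r. Other features were chosen after their values were seen. edgeR and DESeq2 1.42.0 on recovered reads, other pseudocounts, no filter, other sums, a replicate block and leaving out libraries were tried. Reads carry no molecular identifiers, so floors cover counting error only.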

Additional observations from a re-analysis of the deposited data

Results flagged for a closer look

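Input chromatin held signal over the Csf3r start site in 1 library. In the input of WT replicate 1 the region at the start site held 262 scaled tags, from 107 tags, and the overlapping region in intron 1 (434 bp shared) also held 262. In the other inputs the start-site region held 0 (WT replicate 2), 0.347 and 0 scaled tags (the GrnKO inputs), where 3 tags would be 3.21, 2.08 and 6.12 scaled tags. The inputs were not part of the limma test of genotype on the H3K27ac libraries. They entered 1 alternative, which subtracts the input effect and put the Csf3r start site at 3.67 and Csf3r summed at 1.69 on the log2 scale. In the H3K27ac library of the same pool the start-site region had 448 scaled tags after TMM, the lowest of the 4 libraries, against 450 to 566 in the others. The part of this signal in the Csf3r values was not tested.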

How the results depend on the processing

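Across 31 results, 445 alternatives were computed: 314 kept direction and side of the threshold (or a count within 1.5 times), 49 lost a call, 5 gained one, 32 turned direction and 45 moved a count. edgeR and DESeq2 on recovered reads kept the calls of Csf1r and of both member regions, and DESeq2 added the Csf1r start site, for 3 member regions. With 2 libraries a genotype, calls rest on a spread estimated across features, and a lone library left after removal is assumed to vary like the others. Of the 4 inputs 3 held under 10000000 tags and the other 14415969. With the inputs alone limma called 0 regions (1011 at an unadjusted p under 0.05), and with the input effect subtracted 0 regions (6121 at that p) and 0 genes (873). The cause of the changes below was not tested, beyond fewer samples or regions where a setting removes them.

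For Csf1r summed (-0.32), the authors' scaling gave -0.13, subtracting the input effect -3.87, regions within 1000 bp of the start -0.24 and leaving out 1 library -0.41 to -0.23. Csf2ra summed (0.02) gave -0.084 over non-overlapping regions, -0.15 over regions more than 1000 bp away, -0.014 with the TMM factors of the region table (chosen after seeing the data) and -0.032 to 0.079 leaving out 1 library. Csf2rb summed (-0.10) gave 0.091 with the authors' scaling and 0.15 over distant regions and ran from -0.19 (without WT replicate 2) to -0.0053 (without WT replicate 1). Its start site ran from -0.25 to -0.091. Csf2rb2 summed (-0.10) gave 0.093 with the authors' scaling, 0.19 over distant regions and -0.30 to 0.11 leaving out 1 library. Csf3r summed (-0.05) gave 0.14 with the authors' scaling, 1.69 with the input effect subtracted, 0.014 over non-overlapping regions, 0.066 over distant ones and -0.26 to 0.16 leaving out 1 library.

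Member genes past the threshold (1) were 0 with the authors' scaling, with the input effect subtracted and near the start, and 0 to 2 leaving out 1 library. Member regions past it (2, all lower) were 0 with the authors' scaling or the input effect subtracted, 1 with no filter, 6 with the replicate block and 0 to 9 leaving out 1 library (9 without WT replicate 1, 0 without either GrnKO replicate). Those called higher were 0 to 1 and those lower 0 to 9 leaving out 1 library. Signalling genes past it (7; 4 higher, 3 lower) were 3 with 0 lower under the authors' scaling and 0, with 0 higher and 0 lower, near the start or with the input effect subtracted. They were 11 with 5 lower over non-overlapping regions, and 5 were lower with the TMM factors of the region table. Leaving out 1 library gave 1 to 19, with 0 to 10 higher and 1 to 9 lower.

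Of single regions and genes, the authors' scaling turned the Csf2rb (0.055), Csf2rb2 (0.10) and Csf3r (0.093) start sites, the strongest Csf1r region (0.017) and Csf3 (0.10). Subtracting the input effect turned the Csf2rb start site (1.10), the strongest Csf1r region (1.18), the Csf1r start site (0.79), the region 6400 bp upstream of Csf1r (0.088), the Csf3r start site (3.67) and Csf1 (-1.49). Leaving out 1 library turned the start sites of Csf2rb2 (-0.34 to 0.092), Csf2ra (-0.21 to 0.23) and Csf3r (-0.30 to 0.034), and Csf2 (-0.95 to 0.32). Near the start Src was 0.080.

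Libraries that share a replicate number come from different mice, and their deviations from the group means correlated at 0.03 over regions and 0.04 over genes, so the numbers were not taken as pairs. With the replicate block the calls went from 2 to 6 member regions and from 7 to 13 signalling genes (7 lower), and over all tested regions from 7850 to 11381. Over all regions the calls were 12993 and 14409 without WT replicates 1 and 2 and 1299 and 1847 without GrnKO replicates 1 and 2, 6917 with the authors' scaling (6583 higher and 334 lower, against 5490 and 2360) and 5285 with no filter.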
